A study of Mus musculus with 108 samples.

Results

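The experiment described here set 3 livers of mice given Wy-14643 against 3 livers of mice given vehicle, all taken 1 day after the first dose. The members are the 6 arrays whose titles carry Wy-14643 at 300 mg/kg or its vehicle at 1 day, of 108 arrays in the series, with every gene of the deposited value table. All mice were ovariectomized females of the strain C57BL/6, and their ages were not used here. The treated mice received Wy-14643 at 300 mg/kg by gavage, and the vehicle mice received sesame oil. The labels place both groups in the arm with daily gavage, 1 day after the first dose, and do not say whether a second dose preceded the kill. A separate set of 3 Wy-14643 and 3 vehicle livers was taken 24 h after a single gavage, and 3 livers of mice given clofibrate at 300 mg/kg were taken at 1 day with 3 vehicle livers of their own arm. Total RNA of each liver was labelled with Cy3 and hybridised to a single-colour Agilent array, so each array is 1 sample. The design text calls the 3 samples of a group biological replicates. The p-values measure the spread between such samples within groups and no other spread. That spread was estimated over all groups of the arm, or of both arms for the difference between the compounds.

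Wy-14643 is labelled as a ligand of PPARalpha, a nuclear receptor that is abundant in hepatocytes and pairs with RXR on DNA. In the fasted liver the receptor is known to be activated by fatty acids and to raise genes of fatty acid uptake, of the carnitine shuttle into mitochondria, of beta-oxidation in mitochondria and peroxisomes, of omega-oxidation in the endoplasmic reticulum, and of ketone body production. In rodents its agonists also enlarge the peroxisome compartment and start a wave of hepatocyte proliferation, and the receptor is known to restrain inflammatory genes of the liver. The comparison with vehicle shows how far each of these gene groups had moved at 1 day.

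Levels are given as log2 intensities after each array was scaled to its 75th percentile, in the order of replicates 1, 2 and 3, and differences are Wy-14643 minus vehicle on that log2 scale. Adjusted p-values come from limma over all 11539 genes tested. A gene is said to have risen or fallen only where its adjusted p was under 0.05. Of 15129 genes with a listed probe, 11909 were listed on all 6 arrays. A further 705 were listed on all Wy-14643 arrays and no vehicle array, 410 on all vehicle arrays and no Wy-14643 array, 33 in part and 2072 on none of the 6. Signals stop at a scanner limit, which lay at 15.8 in the scaled Wy-14643 group and at 16.4 in the vehicle group. Genes at the limit in both groups, or at the limit in the lower group, were left out, which removed 370 of the 11909. Where the 3 arrays of the higher group all lie at the limit, the change is given as a lower bound.

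Vehicle replicate 3 stood apart from the other 5 arrays. It correlated with the other vehicle arrays at 0.942 and 0.936 over genes, while those correlated at 0.983 with each other and the Wy-14643 arrays at 0.988 to 0.993 among themselves. It lay more than 2-fold above both other vehicle livers in 458 genes and more than 2-fold below both in 401. Its Lcn2 level, a secreted protein of the acute phase response and of neutrophils, was 16.61, the highest of the 108 arrays. The Wy-14643 livers had Lcn2 levels of 7.71, 8.52 and 8.08, against 10.56 and 9.14 in the other vehicle livers. Lcn2 is also a neutrophil marker, so it was left out of the sum, a choice made after seeing the data. The summed level of the other 5 measured neutrophil markers was 10.54, 10.57 and 11.13 in Wy-14643 livers, against 11.34, 11.36 and 14.60 in vehicle livers. The 12 Kupffer cell markers summed to 16.15, 16.35 and 16.56 in Wy-14643 livers, against 16.64, 16.77 and 18.05 in vehicle livers. Vehicle replicate 3 was the highest in both sums. A further 4 neutrophil markers, listed on all vehicle arrays and no Wy-14643 array, are not in the sum. Of 10 hepatocyte markers, 8 lay at the scanner limit and were not read, and of 12 muscle markers 1 was listed on all 6 arrays. In bulk RNA, fewer cells of a type and less RNA per cell cannot be told apart. The results below are therefore given with all 6 arrays and without vehicle replicate 3. Where a gene is mentioned in passing, its difference or fold from all 6 arrays is followed in parentheses by that without vehicle replicate 3.

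Wy-14643 raised 862 genes (7.47% of those tested) and lowered 1787 (15.5%). Without vehicle replicate 3, 537 genes rose (4.65%) and 1072 fell (9.29%). A set of 493 genes rose and 895 fell in both analyses, of which 194 rose and 243 fell by more than 2-fold. Leaving out that liver ended the call of 1261 genes, 369 higher and 892 lower, added 221, and turned the direction of none of the called genes. The balance of higher and lower calls depended on how the groups were scaled to each other. Higher genes made up 32.5% of calls here, 43.0% with scaling to the median, 51.4% with the percentile of all listed probes, 42.7% without the dimmest 25% of genes, 68.6% with quantile normalization and 97.1% with the values as deposited. Across all genes the median difference was -0.15 here, 0.07 with quantile normalization and 0.48 with the values as deposited, so a difference is best read against that median. On the deposited values 55.2% of all genes were called higher and 1.62% lower, and with quantile normalization 12.1% and 5.53%. On the deposited values the difference of every gene lay higher by the same amount, so no gene that rose could turn negative there. With quantile normalization none of the 862 genes that rose turned negative. Of the 1787 that fell, 693 lay above 0 on the deposited values and 21 with quantile normalization. A fit on the 6 arrays alone, with no spread borrowed from the rest of the arm, called 239 genes higher and 364 lower. Groups that did not overlap were common: all 3 Wy-14643 livers lay above all 3 vehicle livers in 1228 genes and below them in 2895. Together these were 35.7% of all genes tested, so groups that are apart say little by themselves.

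**Figure D1:**
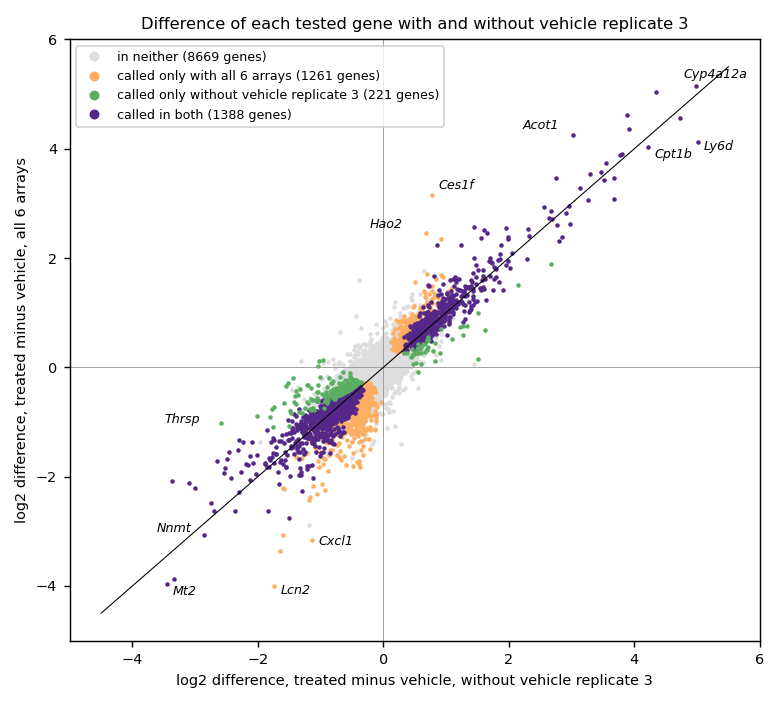
Each point is 1 of 11539 genes, with the log2 difference, Wy-14643 minus vehicle, without vehicle replicate 3 on the x axis and from all 6 arrays on the y axis. Colours mark the 1388 genes called in both analyses, the 1261 called only with all 6 arrays, the 221 called only without that liver, and the 8669 called in neither; the genes that leave the diagonal are those in which vehicle replicate 3 stood apart.

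Genes that bring fatty acids into the cell rose in part. Of 13 tested members of the uptake and activation list, 9 rose and none fell, and 8 rose without vehicle replicate 3, against 7.47% and 4.65% of all genes. The median difference of the list was 1.00. Cd36, the fatty acid translocase of the plasma membrane, measured 13.66, 14.11 and 14.00 in Wy-14643 livers, against 10.26, 10.23 and 12.06 in vehicle livers. All 3 Wy-14643 livers lay above every vehicle liver, and vehicle replicate 3 was the highest of the vehicle livers. Cd36 rose by 3.08 ± 0.34 (SE, adjusted p = 4.69e-09), and by 3.68 without vehicle replicate 3 (adjusted p = 7.83e-12). Vldlr, a receptor that takes up triglyceride-rich lipoproteins, measured 12.00, 12.78 and 12.33 in Wy-14643 livers, against 10.87, 9.97 and 8.61 in vehicle livers. Vldlr rose by 2.55 ± 0.39 (SE, adjusted p = 4.11e-06), and by 1.95 without vehicle replicate 3 (adjusted p = 0.000291). Slc27a1 and Slc27a4, fatty acid transport proteins with acyl-CoA synthetase activity, rose by 1.47 (1.32) and 0.76 (0.79). Fabp4, a cytosolic fatty acid carrier best known from adipocytes and macrophages, reached the scanner limit in all Wy-14643 livers. Its levels were 15.84, 15.66 and 15.80 in Wy-14643 livers, against 12.96, 12.97 and 14.45 in vehicle livers. Fabp4 rose at least 4.95-fold (adjusted p = 1.51e-09), and at least 6.97-fold without vehicle replicate 3 (adjusted p = 2.09e-13). Fabp2, the intestinal carrier of the same family, rose at least 1.89-fold (1.67-fold). Lpl, which releases fatty acids from lipoproteins, had a difference of 1.15 (adjusted p = 0.0135), which lost its call without Wy-14643 replicate 2 (1.07, adjusted p = 0.0543) and without vehicle replicate 1 (0.97, adjusted p = 0.0649).

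The carnitine shuttle, which moves fatty acids into mitochondria, rose almost as a whole, with a median difference of 1.87. In it 7 of 8 members were higher with all 6 arrays and 7 without vehicle replicate 3, against 7.47% and 4.65% of all genes. Cpt1b, the carnitine palmitoyltransferase of muscle, which is the minor form in liver, measured 12.26, 12.32 and 12.39 in Wy-14643 livers, against 8.51, 7.69 and 8.66 in vehicle livers. The groups did not overlap, and the gap between them was several times the spread within each. Cpt1b rose by 4.04 ± 0.26 (SE, adjusted p = 1.95e-15), and by 4.22 without vehicle replicate 3 (adjusted p = 2.07e-14). Cpt1a, the liver form, measured 14.20, 14.34 and 14.12 in Wy-14643 livers, against 13.57, 14.15 and 13.84 in vehicle livers. Its difference was 0.36 ± 0.18 (SE, adjusted p = 0.134), and it became a call without vehicle replicate 2 (0.51, adjusted p = 0.0467). Slc22a5, the plasma membrane carnitine transporter OCTN2, measured 12.10, 12.36 and 12.18 in Wy-14643 livers, against 9.47, 9.42 and 9.95 in vehicle livers. Slc22a5 rose by 2.60 ± 0.20 (SE, adjusted p = 2.02e-13), and by 2.77 without vehicle replicate 3 (adjusted p = 6.56e-13). Crat, which makes short-chain acylcarnitines, measured 14.11, 14.75 and 14.54 in Wy-14643 livers, against 11.78, 11.20 and 12.58 in vehicle livers. Crat rose by 2.62 ± 0.24 (SE, adjusted p = 3.44e-11), and by 2.98 without vehicle replicate 3 (adjusted p = 7.66e-13). Slc22a21 and Slc25a20, a second carnitine transporter and the carrier of the inner mitochondrial membrane, rose by 1.94 (1.98) and 1.81 (1.80). Crot, the peroxisomal carnitine octanoyltransferase, and Cpt2, the transferase of the inner membrane, reached the scanner limit in all Wy-14643 livers and rose at least 1.87-fold (1.73-fold) and 1.55-fold (1.47-fold).

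In mitochondrial beta-oxidation 10 of 14 tested members rose and 1 fell, against 7.47% and 15.5% of all genes. Without vehicle replicate 3, 7 rose and 1 fell, against 4.65% and 9.29%. The median difference was 0.89, and 4 further members were left out at the scanner limit. Decr1, which reduces the double bonds of unsaturated acyl-CoA, measured 11.74, 11.95 and 11.51 in Wy-14643 livers, against 9.77, 10.05 and 9.46 in vehicle livers. Decr1 rose by 1.97 ± 0.23 (SE, adjusted p = 1.66e-08), and by 1.82 without vehicle replicate 3 (adjusted p = 1.08e-06). Hadha, the alpha subunit of the trifunctional protein, measured 12.59, 12.68 and 12.50 in Wy-14643 livers, against 11.15, 11.08 and 10.96 in vehicle livers. Hadha rose by 1.52 ± 0.20 (SE, adjusted p = 1.91e-07), and by 1.47 without vehicle replicate 3 (adjusted p = 5.09e-06). The groups were apart in both genes, and vehicle replicate 3 was the lowest vehicle liver in each. Acadl and Acad11, acyl-CoA dehydrogenases, rose by 1.48 (1.30) and 1.31 (1.23). Hadhb, the beta subunit of the trifunctional protein, Eci1, an enoyl-CoA isomerase, and Etfdh, which passes electrons on to ubiquinone, were at the scanner limit in all Wy-14643 livers and rose at least 2.51-fold (2.4-fold), 2.28-fold (1.91-fold) and 1.95-fold (1.77-fold). Acads, Hadh and Etfa rose with all 6 arrays and did not pass without vehicle replicate 3, where their differences were 0.30, 0.65 and 0.33. Hadh also lost its call when all its probes were averaged (0.26). Acsm1, a medium-chain acyl-CoA synthetase, was the member that fell, with differences of -0.85 (-1.07); on the deposited values its difference was -0.23.

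Peroxisomal beta-oxidation moved less uniformly. Of 12 tested members 5 rose and none fell, and 4 rose without vehicle replicate 3, against 7.47% and 4.65% of all genes. Another 6 members were left out at the scanner limit, Acaa1b among them. Ehhadh, the bifunctional enzyme that hydrates and dehydrogenates enoyl-CoA, measured 15.84, 15.66 and 15.80 in Wy-14643 livers, against 14.17, 14.14 and 11.46 in vehicle livers. Ehhadh rose at least 5.68-fold (adjusted p = 2.81e-07), and at least 3.05-fold without vehicle replicate 3 (adjusted p = 5.21e-08). Acot8, a peroxisomal thioesterase, measured 14.76, 14.99 and 14.80 in Wy-14643 livers, against 13.05, 13.12 and 12.87 in vehicle livers. Acot8 rose by 1.83 ± 0.13 (SE, adjusted p = 4.68e-14), and by 1.76 without vehicle replicate 3 (adjusted p = 4.99e-12). Decr2, the peroxisomal dienoyl-CoA reductase, rose by 1.34 (0.91). Ech1, an enoyl-CoA isomerase, rose by 1.02 (1.02) with 2 of 3 Wy-14643 livers at the limit. Among peroxins, the proteins that build peroxisomes, 6 of 13 rose and 1 fell, against 7.47% and 15.5% of all genes. Without vehicle replicate 3, 5 rose and none fell, against 4.65% and 9.29%. Pex11a, which drives division of peroxisomes, measured 15.53, 15.59 and 15.80 in Wy-14643 livers, against 13.53, 13.18 and 14.28 in vehicle livers. Pex11a rose by 1.98 ± 0.26 (SE, adjusted p = 3.96e-07), and by 2.29 without vehicle replicate 3 (adjusted p = 6.71e-08). In this gene 2 of 3 Wy-14643 livers were at the scanner limit. Pex19, Pex16 and Pex5, which insert membrane proteins or import matrix enzymes, rose by 1.00 (0.77), 0.75 (0.54) and 0.70 (0.70), and averaging the probes of Pex5 ended its call (0.41).

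Omega-oxidation held the 3 largest rises with all 6 arrays. Without vehicle replicate 3, Ly6d (5.01) and Lamb3 (4.74), described further on, were above all or all but 1 of these. Of 8 tested members of that list 5 rose and none fell, against 7.47% and 15.5% of all genes. Without vehicle replicate 3, 5 rose and 1 fell, against 4.65% and 9.29%. Cyp4a12a, a fatty acid omega-hydroxylase, measured 12.64, 12.06 and 12.46 in Wy-14643 livers, against 7.53, 7.26 and 6.94 in vehicle livers. Cyp4a12a rose by 5.14 ± 0.40 (SE, adjusted p = 5.3e-12), and by 4.99 without vehicle replicate 3 (adjusted p = 3.11e-10). Its close relative Cyp4a12b measured 15.10, 15.01 and 14.85 in Wy-14643 livers, against 10.77, 10.50 and 8.60 in vehicle livers. Cyp4a12b rose by 5.03 ± 0.29 (SE, adjusted p = 2.68e-17), and by 4.35 without vehicle replicate 3 (adjusted p = 2.31e-18). Cyp4a31, of the same cluster, measured 13.22, 13.42 and 12.97 in Wy-14643 livers, against 9.40, 9.26 and 7.11 in vehicle livers. Cyp4a31 rose by 4.62 ± 0.44 (SE, adjusted p = 1.53e-10), and by 3.88 without vehicle replicate 3 (adjusted p = 7.42e-09). In all 3 genes vehicle replicate 3 was the lowest of the vehicle livers. Cyp4a12a and Cyp4a12b are near-identical in sequence, and how far the probes of the Cyp4a genes share signal was not tested. Cyp4a10, the classic marker gene of PPARalpha agonists in mouse liver, was at the scanner limit in all Wy-14643 livers and rose at least 3.19-fold (1.75-fold). At its brightest probe below the limit the difference was 4.69. Aldh3a2, which oxidises the fatty aldehydes formed on the way, measured 15.84, 15.66 and 15.80 in Wy-14643 livers, against 13.92, 14.30 and 11.72 in vehicle livers. Aldh3a2 rose at least 5.47-fold (adjusted p = 1.22e-06), and at least 3.15-fold without vehicle replicate 3 (adjusted p = 2.72e-05). Cyp4f14, a hydroxylase of leukotrienes and fatty acids, went the other way. Its difference was -0.67 (adjusted p = 0.106) with all 6 arrays, -0.67 with the replicate number as a block (adjusted p = 0.0418), and -1.39 without vehicle replicate 3 (adjusted p = 1.69e-05).

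Acyl-CoA thioesterases, which release free fatty acids from CoA, included members that could be read in the Wy-14643 livers alone. Acot1, the cytosolic form, measured 15.84, 15.66 and 15.80 in Wy-14643 livers, against 13.05, 12.45 and 9.03 in vehicle livers. Acot1 rose at least 19.1-fold (adjusted p = 5.1e-09), and at least 8.09-fold without vehicle replicate 3 (adjusted p = 3.53e-10). The vehicle livers spread over more than 4 log2 units, with replicate 3 the lowest. Acot2 and Acot3, the mitochondrial and a peroxisomal form, were listed on all Wy-14643 arrays, with means of 13.1 and 12.4, and on no vehicle array. Acot4, another peroxisomal form, measured 13.14, 13.62 and 13.36 in Wy-14643 livers, against 11.49, 12.13 and 9.38 in vehicle livers. Acot4 rose by 2.37 ± 0.35 (SE, adjusted p = 3.08e-06), and by 1.56 without vehicle replicate 3 (adjusted p = 7.33e-05). Acot11, a form with a lipid-binding domain, measured 7.12, 6.73 and 6.96 in Wy-14643 livers, against 7.59, 8.45 and 8.61 in vehicle livers. Acot11 fell by 1.28 ± 0.24 (SE, adjusted p = 0.000143), and by 1.08 without vehicle replicate 3 (adjusted p = 0.00345). The genes Acot1 to Acot4 are close paralogs, and cross-hybridisation between them was not tested.

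The RefSeq promoter windows of the raised genes were searched for the direct repeat to which PPARalpha and RXR bind, that is AGGTCA, any 1 base, and AGGTCA again, on both strands with up to 2 mismatches over the 250 bases before the start. The 3 windows below belong to the raised genes with the largest differences that held a match. They are shown in GRCm38.p6, 5′ to 3′ on the strand of the gene, with the match in capitals. The Mogat1 window is chr1:78510810-78511059 on the plus strand, the Cd36 window is chr5:17835897-17836146 on the minus strand, and the Acot4 window is chr12:84038129-84038378 on the plus strand.
Mogat1: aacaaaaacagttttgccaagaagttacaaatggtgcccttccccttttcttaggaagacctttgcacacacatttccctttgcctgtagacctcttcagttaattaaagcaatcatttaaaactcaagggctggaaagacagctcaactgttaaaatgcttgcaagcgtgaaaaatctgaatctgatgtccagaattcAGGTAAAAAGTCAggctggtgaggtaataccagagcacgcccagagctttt
Cd36: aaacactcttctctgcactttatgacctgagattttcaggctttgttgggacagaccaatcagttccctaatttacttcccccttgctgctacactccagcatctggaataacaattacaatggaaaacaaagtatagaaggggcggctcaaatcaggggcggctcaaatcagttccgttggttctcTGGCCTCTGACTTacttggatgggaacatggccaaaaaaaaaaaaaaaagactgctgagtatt
Acot4: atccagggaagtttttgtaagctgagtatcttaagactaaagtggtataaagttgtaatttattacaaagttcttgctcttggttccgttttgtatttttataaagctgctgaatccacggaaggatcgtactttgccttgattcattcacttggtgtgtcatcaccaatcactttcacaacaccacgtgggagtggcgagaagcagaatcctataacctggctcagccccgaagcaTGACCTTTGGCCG
Each match carried 2 mismatches, and it ended 38 bases before the start in Mogat1, 50 bases before it in Cd36 and 0 bases before it in Acot4. Such a match was found in 14 of the 399 windows of genes that rose with and without vehicle replicate 3 (3.51%), in 28 of the 702 windows of genes that fell (3.99%), in 293 of 9346 windows of all genes tested (3.14%) and in 1005 of all 27025 windows (3.72%). The raised genes thus held the match at about the share of all windows of that length, and a match describes letters only.

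Genes of ketone production and fasting rose in part. Fgf21, a hormone secreted by the fasted liver, measured 11.59, 10.76 and 11.51 in Wy-14643 livers, against 8.68, 9.28 and 8.32 in vehicle livers. Fgf21 rose by 2.53 ± 0.49 (SE, adjusted p = 0.000194), and by 2.31 without vehicle replicate 3 (adjusted p = 0.00294). Pdk4, the kinase that shuts down pyruvate dehydrogenase, measured 11.95, 11.81 and 12.23 in Wy-14643 livers, against 10.38, 9.52 and 9.85 in vehicle livers. Pdk4 rose by 2.08 ± 0.40 (SE, adjusted p = 0.000184), and by 2.05 without vehicle replicate 3 (adjusted p = 0.00139). Both genes were apart between the groups. Slc16a1, a transporter of lactate and ketone bodies, and Acat1, a mitochondrial thiolase of ketone metabolism, rose by 1.12 (1.40) and 0.89 (0.89), with 2 of 3 Wy-14643 livers at the scanner limit in Slc16a1. Of the 6 tested members of this list 4 rose and 1 fell, against 7.47% and 15.5% of all genes. Without vehicle replicate 3, 5 rose and none fell, against 4.65% and 9.29%. Angptl4, an inhibitor of lipoprotein lipase, measured 15.57, 15.65 and 15.42 in Wy-14643 livers, against 14.41, 14.02 and 15.96 in vehicle livers. It did not pass with all 6 arrays (0.75, adjusted p = 0.0743) and rose by 1.33 without vehicle replicate 3 (adjusted p = 0.000835), the liver with its highest vehicle level. The Angptl4 level of Wy-14643 replicate 2 lay within 0.1 of the scanner limit, so both differences may be too small.

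Of 12 tested lipid droplet genes 7 rose and none fell, with and without vehicle replicate 3, against 7.47% and 4.65% of all genes. Cidec, which fuses small droplets into large ones, measured 11.53, 12.24 and 13.12 in Wy-14643 livers, against 8.20, 8.86 and 8.16 in vehicle livers. Cidec rose by 3.89 ± 0.26 (SE, adjusted p = 4.11e-15), and by 3.77 without vehicle replicate 3 (adjusted p = 5.23e-13). G0s2, an inhibitor of the lipase ATGL, measured 14.21, 13.39 and 14.25 in Wy-14643 livers, against 12.84, 11.90 and 12.28 in vehicle livers. G0s2 rose by 1.61 ± 0.44 (SE, adjusted p = 0.00668), and by 1.58 without vehicle replicate 3 (adjusted p = 0.0255). ATGL itself (Pnpla2) and its activator Abhd5 rose by 0.62 (0.64) and 0.98 (0.76), so the lipase, its activator and its inhibitor were all higher. Fitm2, which helps droplets bud from the endoplasmic reticulum, rose by 1.14 (1.11), and Mgll, the monoacylglycerol lipase, at least 3.03-fold (2.08-fold). In triglyceride synthesis 2 of 10 members rose and 1 fell, against 7.47% and 15.5% of all genes. Mogat1, a monoacylglycerol acyltransferase, measured 11.39, 11.67 and 11.84 in Wy-14643 livers, against 7.85, 7.81 and 7.54 in vehicle livers. Mogat1 rose by 3.90 ± 0.18 (SE, adjusted p = 2.32e-20), and by 3.80 without vehicle replicate 3 (adjusted p = 2.31e-18). Gpat3, a glycerol-phosphate acyltransferase, rose by 1.66 (1.79). Lpin1, a phosphatidate phosphatase that also acts as a coactivator of PPARalpha, measured 11.19, 10.26 and 9.76 in Wy-14643 livers, against 12.47, 12.59 and 12.32 in vehicle livers. Lpin1 fell by 2.06 ± 0.44 (SE, adjusted p = 0.000661), and by 2.13 without vehicle replicate 3 (adjusted p = 0.00248). Mttp, which loads triglyceride onto lipoproteins, rose by 1.47 (1.35), and Scarb1, the receptor for high-density lipoprotein, fell, with differences of -1.03 (-0.85); on the deposited values Scarb1 lay at -0.41 and was not called.

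**Figure D2:**
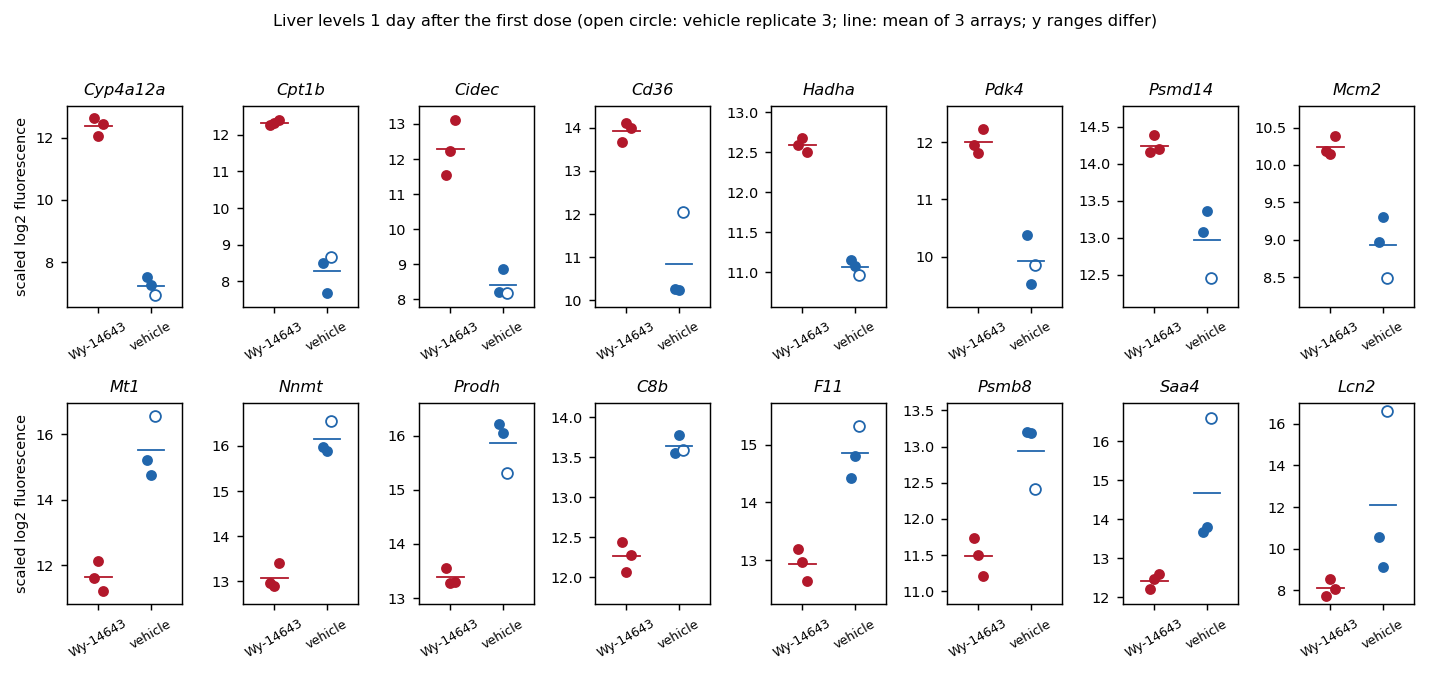
Scaled log2 intensity of 16 genes in each liver, with the 3 Wy-14643 livers left of the 3 vehicle livers and a line at each mean. The open circle is vehicle replicate 3. In Cyp4a12a, Cpt1b, Cidec, Hadha and Pdk4 the groups were far apart with or without that circle, whereas in Lcn2 it alone lay at 16.61.

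Several of the largest rises were in genes outside fatty acid metabolism. The 15 highest genes that were apart between the groups and called in both analyses were Cyp4a12a, Cyp4a12b, Cyp4a31, Lamb3, Krt23, Acot1, Ly6d, Cpt1b, Mogat1, Cidec, Spon2, Amn, Hspb1, Vnn1 and Akr1c18. Lamb3, a chain of the basement membrane protein laminin, measured 12.30, 12.53 and 12.14 in Wy-14643 livers, against 7.74, 7.43 and 8.09 in vehicle livers. Lamb3 rose by 4.57 ± 0.22 (SE, adjusted p = 8.21e-19), and by 4.74 without vehicle replicate 3 (adjusted p = 7.06e-18). Krt23, an epithelial keratin, measured 12.64, 13.47 and 13.02 in Wy-14643 livers, against 9.06, 9.18 and 7.79 in vehicle livers. Krt23 rose by 4.37 ± 0.45 (SE, adjusted p = 1.28e-09), and by 3.92 without vehicle replicate 3 (adjusted p = 1.22e-07). Ly6d, a surface protein of keratinocytes and lymphocytes, measured 13.97, 14.29 and 14.85 in Wy-14643 livers, against 9.63, 9.08 and 12.04 in vehicle livers. Ly6d rose by 4.12 ± 0.46 (SE, adjusted p = 7.32e-09), and by 5.01 without vehicle replicate 3 (adjusted p = 2.77e-12). In Ly6d vehicle replicate 3 lay far above the other vehicle livers and still below every Wy-14643 liver. Amn, a partner of the vitamin B12 receptor, and Trpv2, a cation channel, rose by 3.57 (3.47) and 3.05 (3.26). Spon2, a matrix protein, rose by 3.73 (3.55), and Akr1c18, a steroid dehydrogenase, by 3.46 (2.76). Vnn1, a pantetheinase known as a PPARalpha target in mouse liver, measured 15.42, 15.65 and 15.61 in Wy-14643 livers, against 12.15, 11.61 and 12.51 in vehicle livers. Vnn1 rose by 3.47 ± 0.20 (SE, adjusted p = 1.96e-17), and by 3.68 without vehicle replicate 3 (adjusted p = 2.59e-17). Krt23 stands in the list of bile duct markers, of which 1 of 7 tested members rose and 1 fell, against 7.47% and 15.5% of all genes. Cidec and Fabp4 stand in the list of adipocyte markers, of which both tested members rose; Adipoq, the defining hormone of adipocytes, was not read here.

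Genes of protein breakdown also rose. Of 25 tested proteasome subunits 22 rose and none fell, and 15 rose without vehicle replicate 3, against 7.47% and 4.65% of all genes. Their median difference was 0.66, against -0.15 for all genes. Psmd14, the deubiquitinase of the lid, measured 14.16, 14.38 and 14.19 in Wy-14643 livers, against 13.07, 13.37 and 12.46 in vehicle livers. Psmd14 rose by 1.28 ± 0.15 (SE, adjusted p = 4.51e-08), and by 1.02 without vehicle replicate 3 (adjusted p = 3.07e-06). Psmd4, a ubiquitin receptor, measured 14.89, 15.16 and 15.02 in Wy-14643 livers, against 14.09, 13.83 and 13.60 in vehicle livers. Psmd4 rose by 1.18 ± 0.15 (SE, adjusted p = 2.06e-07), and by 1.06 without vehicle replicate 3 (adjusted p = 1.15e-05). Psmc4, an ATPase of the base, and Psmb5, a catalytic subunit, rose by 0.87 (0.93) and 0.82 (0.78). The 3 subunits that replace catalytic ones in the immunoproteasome went the other way. Psmb8 measured 11.73, 11.51 and 11.22 in Wy-14643 livers, against 13.21, 13.19 and 12.42 in vehicle livers. Psmb8 fell by 1.45 ± 0.23 (SE, adjusted p = 7.42e-06), and by 1.71 without vehicle replicate 3 (adjusted p = 1.28e-06). Psmb10 and Psmb9 fell too, with differences of -1.15 (-1.37) and -0.84 (-1.10). On the deposited values Psmb8 stayed lower (-0.83, adjusted p = 0.00221), while Psmb10 (-0.53) and Psmb9 (-0.22) were not called. Leaving out any 1 of Wy-14643 replicates 2 and 3 or vehicle replicates 1 and 2 also ended the call of Psmb9, at -0.77, -0.82, -0.72 and -0.70. Of 12 tested antigen presentation genes 5 fell and none rose, with and without vehicle replicate 3, against 15.5% and 9.29% of all genes. The members that fell were, besides these subunits, Tap2 and Tapbp, which load peptides onto class I molecules. On the deposited values the same list had 4 members higher and 1 lower, against 55.2% and 1.62% of all genes.

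Chaperones rose as well, with 9 of 12 tested heat shock genes higher and none lower, against 7.47% and 15.5% of all genes. Without vehicle replicate 3, 5 were higher, against 4.65%. Hspb1, a small heat shock protein, measured 11.01, 11.77 and 11.81 in Wy-14643 livers, against 8.45, 8.01 and 7.50 in vehicle livers. Hspb1 rose by 3.55 ± 0.32 (SE, adjusted p = 1.9e-11), and by 3.30 without vehicle replicate 3 (adjusted p = 2.19e-09). Hsph1, a partner of HSP70, rose by 1.18 (1.19), Cct3, a subunit of the chaperonin TRiC, by 1.12 (0.93), and Hsp90aa1 at least 2.22-fold (2.19-fold). Among targets of NRF2, the regulator of the oxidative stress response, 6 of 11 rose and 1 fell, against 7.47% and 15.5% of all genes. Without vehicle replicate 3, 4 rose and none fell, against 4.65% and 9.29%. Ephx1, microsomal epoxide hydrolase, measured 15.42, 15.32 and 15.06 in Wy-14643 livers, against 13.96, 13.70 and 10.45 in vehicle livers. Ephx1 rose by 2.57 ± 0.43 (SE, adjusted p = 2.62e-05), and by 1.44 without vehicle replicate 3 (adjusted p = 0.000343). Srxn1 and Gsr, which restore oxidised peroxiredoxin and glutathione, rose by 1.31 (1.11) and 0.92 (0.77). Gclc, of glutathione synthesis, rose by 1.40 with all 6 arrays and had a difference of 0.77 without vehicle replicate 3 (adjusted p = 0.0816). In retinol metabolism 4 of 12 rose and 3 of 12 without vehicle replicate 3, against 7.47% and 4.65% of all genes. Retsat, retinol saturase, measured 15.84, 15.66 and 15.80 in Wy-14643 livers, against 13.44, 12.98 and 12.06 in vehicle livers. Retsat rose at least 7.66-fold (adjusted p = 5.65e-14), and at least 5.87-fold without vehicle replicate 3 (adjusted p = 7.66e-13). Dhrs4, a peroxisomal retinal reductase, rose by 1.56 (1.41).

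Fewer cell cycle genes were called without vehicle replicate 3, in which many of them were low. Of 25 tested members 16 rose and none fell with all 6 arrays, where 7.47% of all genes rose. Without vehicle replicate 3, 7 rose, against 4.65%. Those 7 were Mcm2, Mcm3, Mcm4, Mcm7, Pcna, Tyms and Ccne1, which load, clamp or feed DNA replication or open S phase. Other members with such roles, Mcm5, Mcm6, Cdt1, Rrm1 and Rrm2, rose with all 6 arrays and did not pass without that liver, and Cdc6 and Tk1 passed in neither analysis. Mcm2, a subunit of the replicative helicase, measured 10.18, 10.14 and 10.39 in Wy-14643 livers, against 8.98, 9.30 and 8.49 in vehicle livers. Mcm2 rose by 1.31 ± 0.29 (SE, adjusted p = 0.000904), and by 1.10 without vehicle replicate 3 (adjusted p = 0.0148). Mcm4 measured 13.12, 12.86 and 13.28 in Wy-14643 livers, against 11.81, 12.02 and 11.12 in vehicle livers. Mcm4 rose by 1.44 ± 0.34 (SE, adjusted p = 0.00222), and by 1.17 without vehicle replicate 3 (adjusted p = 0.0308). In both, every Wy-14643 liver lay above every vehicle liver, and vehicle replicate 3 was the lowest. Ccne1, cyclin E1, rose by 1.41 (1.56); it lost its call without Wy-14643 replicate 3 (1.20) and without vehicle replicate 1 (1.03). Cdk1, the mitotic kinase, measured 10.66, 10.07 and 10.32 in Wy-14643 livers, against 9.03, 9.78 and 7.26 in vehicle livers. It rose by 1.66 with all 6 arrays and had a difference of 0.94 without vehicle replicate 3 (adjusted p = 0.148). Mki67, a marker of cycling cells, measured 12.49, 12.16 and 11.52 in Wy-14643 livers, against 11.23, 12.09 and 9.49 in vehicle livers. It did not pass in either analysis (1.12, adjusted p = 0.128, and 0.40, adjusted p = 0.673), and it rose by 1.69 without vehicle replicate 2 (adjusted p = 0.0252).

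**Figure D3:**
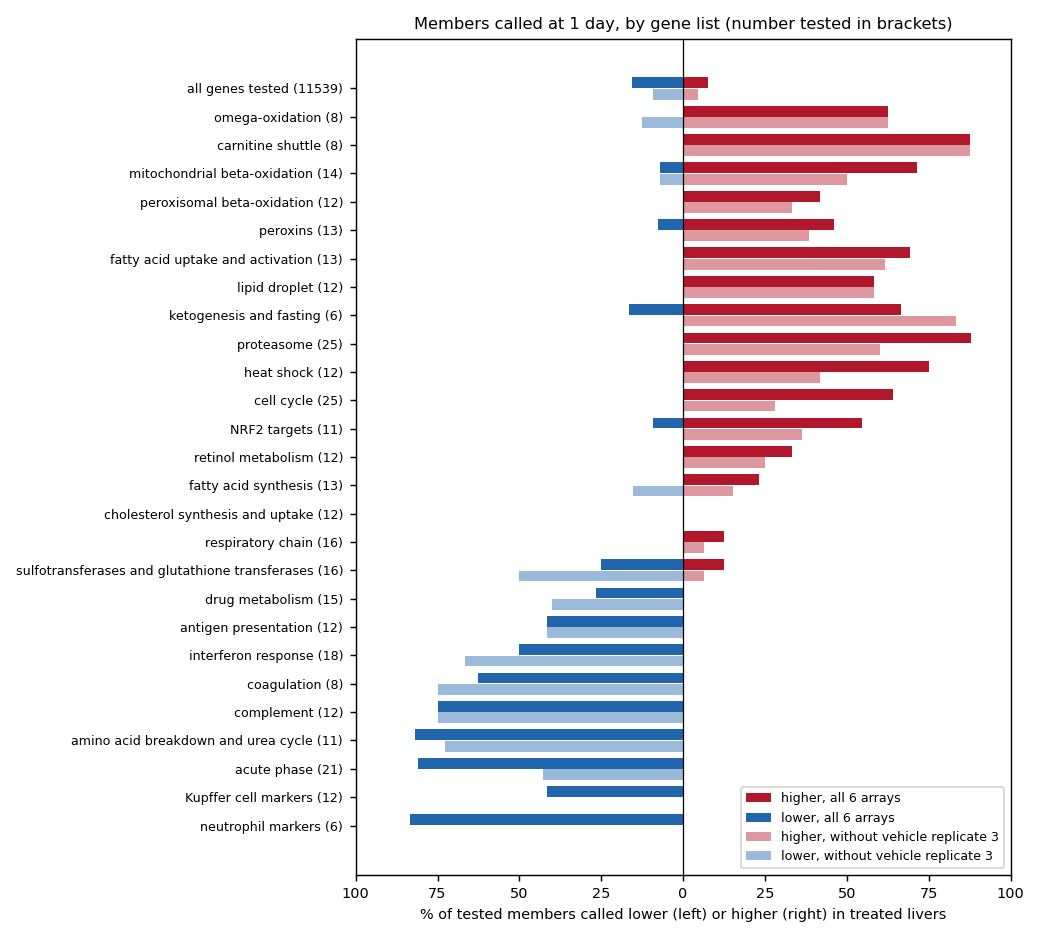
Share of the tested members of each gene list that fell (bars to the left) or rose (bars to the right) in Wy-14643 livers against vehicle livers, in percent. Dark bars use all 6 arrays and pale bars leave out vehicle replicate 3; the proteasome bar shortens to 15 of 25 and the neutrophil bar, which includes Lcn2, vanishes without that liver, whereas the carnitine shuttle, complement and amino acid lists keep 7, 9 and 8 members.

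Among genes called in both analyses, the deepest falls were in the metallothioneins, metal-binding proteins of hepatocytes that respond to zinc, glucocorticoids and inflammation. Mt1 measured 11.61, 12.12 and 11.19 in Wy-14643 livers, against 15.21, 14.75 and 16.57 in vehicle livers. Mt1 fell by 3.87 ± 0.57 (SE, adjusted p = 2.76e-06), and by 3.34 without vehicle replicate 3 (adjusted p = 0.000138). Mt2 measured 10.66, 12.54 and 11.51 in Wy-14643 livers, against 16.37, 13.68 and 16.57 in vehicle livers. Mt2 fell by 3.97 ± 0.59 (SE, adjusted p = 2.77e-06), and by 3.45 without vehicle replicate 3 (adjusted p = 0.000133). Vehicle replicate 3 was at the scanner limit in both genes, and vehicle replicate 1 in Mt2 as well, so the vehicle level is a lower bound there. The 2 genes are near-identical, and sharing of signal between their probes was not tested. Nnmt, which methylates nicotinamide, measured 12.96, 12.89 and 13.40 in Wy-14643 livers, against 15.99, 15.90 and 16.56 in vehicle livers. Nnmt fell by 3.06 ± 0.28 (SE, adjusted p = 4.69e-11), and by 2.86 without vehicle replicate 3 (adjusted p = 4.7e-09). Vehicle replicate 3 was again at the limit, and the groups were apart in all 3 genes. Among the 15 lowest genes were also Pif1, a DNA helicase, Slc2a5, the fructose transporter GLUT5, Slc3a1, a subunit of an amino acid transporter, and Lrtm1, a leucine-rich repeat protein. Slc2a5 measured 7.22, 7.85 and 7.45 in Wy-14643 livers, against 9.89, 10.52 and 10.00 in vehicle livers. Slc2a5 fell by 2.63 ± 0.28 (SE, adjusted p = 1.93e-09), and by 2.69 without vehicle replicate 3 (adjusted p = 2.51e-08). The differences were -2.63 (-2.36) in Pif1, -2.29 (-2.31) in Lrtm1 and -2.62 (-1.84) in Slc3a1. The others were Myom3, Prodh, Saa4, Syne4, Lpin1, Prg4, Itgb3 and Ang. For Myom3, Saa4 and Prg4 the difference shrank without vehicle replicate 3, to -1.50, -1.30 and -1.13. Itgb3 (-2.02) did not pass without Wy-14643 replicate 3 (-1.66), vehicle replicate 1 (-1.95) or vehicle replicate 2 (-1.69).

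Amino acid breakdown and the urea cycle were lower. Of 11 tested members 9 fell and none rose, and 8 fell without vehicle replicate 3, against 15.5% and 9.29% of all genes. The median difference was -1.02. On the deposited values 6 fell and none rose, and with quantile normalization 8 fell, against 1.62% and 5.53%. Prodh, which starts proline breakdown, measured 13.56, 13.28 and 13.30 in Wy-14643 livers, against 16.21, 16.06 and 15.32 in vehicle livers. Prodh fell by 2.48 ± 0.24 (SE, adjusted p = 1.1e-10), and by 2.75 without vehicle replicate 3 (adjusted p = 3.24e-11). Asl, which releases arginine in the urea cycle, measured 13.46, 13.23 and 13.13 in Wy-14643 livers, against 15.17, 15.09 and 15.01 in vehicle livers. Asl fell by 1.82 ± 0.28 (SE, adjusted p = 5.68e-06), and by 1.86 without vehicle replicate 3 (adjusted p = 3.98e-05). Hal, the first enzyme of histidine breakdown, measured 14.08, 14.07 and 13.72 in Wy-14643 livers, against 15.94, 15.45 and 15.74 in vehicle livers. Hal fell by 1.76 ± 0.25 (SE, adjusted p = 9.23e-07), and by 1.74 without vehicle replicate 3 (adjusted p = 1.41e-05). In each the groups were apart. Got1, the cytosolic aspartate aminotransferase, fell, with differences of -1.50 (-1.28). Ass1, the step before Asl, had a difference of -1.08 with all 3 vehicle livers at the scanner limit, so its fall was at least of that size, and it was also called without vehicle replicate 3. Another 7 members were at the limit and not read.

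Genes of plasma proteins made by hepatocytes were mostly lower among the tested members of the complement and coagulation lists. Of 12 tested complement genes 9 fell and none rose, with and without vehicle replicate 3, against 15.5% and 9.29% of all genes. On the deposited values 6 fell and none rose. A further 5 complement members were at the scanner limit and not read. C9, the pore-forming end component, measured 9.09, 9.02 and 9.14 in Wy-14643 livers, against 10.65, 10.37 and 10.99 in vehicle livers. C9 fell by 1.59 ± 0.26 (SE, adjusted p = 1.6e-05), and by 1.43 without vehicle replicate 3 (adjusted p = 0.000461). C8b, a subunit of the same attack complex, measured 12.45, 12.06 and 12.28 in Wy-14643 livers, against 13.55, 13.78 and 13.60 in vehicle livers. C8b fell by 1.38 ± 0.26 (SE, adjusted p = 0.000106), and by 1.40 without vehicle replicate 3 (adjusted p = 0.000583). The differences were -1.23 (-1.16) in C2, -1.41 (-1.10) in C8a and -1.25 (-0.93) in C1s1, the initiating protease. In coagulation 5 of 8 fell and none rose, against 15.5% and 7.47% of all genes. Without vehicle replicate 3, 6 fell, against 9.29%, and on the deposited values 3 fell, against 1.62%. Another 11 of the 19 members of this list were at the scanner limit and not read. F11, coagulation factor XI, measured 13.20, 12.97 and 12.64 in Wy-14643 livers, against 14.43, 14.80 and 15.33 in vehicle livers. F11 fell by 1.92 ± 0.21 (SE, adjusted p = 5.36e-09), and by 1.68 without vehicle replicate 3 (adjusted p = 5.27e-07). F7, factor VII, measured 12.43, 12.30 and 12.14 in Wy-14643 livers, against 14.06, 13.65 and 13.79 in vehicle livers. F7 fell by 1.54 ± 0.16 (SE, adjusted p = 1.28e-09), and by 1.56 without vehicle replicate 3 (adjusted p = 2.2e-08). Fga, a fibrinogen chain, had differences of -1.81 (-1.18) and was at the scanner limit in vehicle replicate 3. In these genes every Wy-14643 liver lay below every vehicle liver, as in 2895 of all 11539 genes tested.

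Interferon-induced genes were lower by smaller amounts. Of 18 tested members 9 fell and none rose with all 6 arrays, against 15.5% and 7.47% of all genes. Without vehicle replicate 3, 12 fell, against 9.29%. The count depended on scaling, at 1 on the deposited values and 4 with quantile normalization, against 1.62% and 5.53% of all genes. Leaving out vehicle replicate 1 gave 4 and leaving out Wy-14643 replicate 1 or 3 or vehicle replicate 2 gave 5. Mx2, an antiviral GTPase, measured 9.27, 9.29 and 9.28 in Wy-14643 livers, against 10.52, 10.27 and 10.92 in vehicle livers. Mx2 fell by 1.29 ± 0.22 (SE, adjusted p = 3.96e-05), and by 1.11 without vehicle replicate 3 (adjusted p = 0.00128). Irf7, which drives interferon transcription, measured 9.88, 9.75 and 9.68 in Wy-14643 livers, against 11.04, 10.72 and 10.21 in vehicle livers. Irf7 fell by 0.89 ± 0.22 (SE, adjusted p = 0.0027), and by 1.11 without vehicle replicate 3 (adjusted p = 0.000765). On the deposited values Mx2 fell by 0.67, and Irf7 was not called (-0.26, adjusted p = 0.292). Ifit1, an RNA sensor, had a difference of -0.59 (adjusted p = 0.153) and of -1.16 without vehicle replicate 3 (adjusted p = 0.00247).

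Acute phase genes were high in vehicle replicate 3, and fewer of them were called lower without it. Of 21 tested members 17 fell and none rose with all 6 arrays, against 15.5% and 7.47% of all genes. Without that liver 9 fell, against 9.29%, and on the deposited values 13 fell, against 1.62%. Vehicle replicate 3 was at the scanner limit in Lcn2, Saa3, Orm3, Saa4, Orm1, Orm2 and Itih4, so with all 6 arrays their falls were at least of the size given. Lcn2, at the levels given above, had a difference of -4.00 (adjusted p = 0.015), which was -1.74 without vehicle replicate 3 (adjusted p = 0.296). Saa3, a serum amyloid made by macrophages and hepatocytes, measured 10.12, 11.11 and 10.61 in Wy-14643 livers, against 13.07, 11.35 and 16.61 in vehicle livers. Its difference was -3.06, and -1.60 without vehicle replicate 3 (adjusted p = 0.308); leaving out Wy-14643 replicate 1 (-2.82) or 3 (-3.06) also ended the call. Orm3, an orosomucoid, measured 9.56, 10.06 and 9.87 in Wy-14643 livers, against 11.70, 11.27 and 16.62 in vehicle livers, with -3.36 and -1.65 (adjusted p = 0.134) in the 2 analyses. Members that fell without vehicle replicate 3 as well included Saa4, Orm1, Orm2, Crp, Itih4 and Il6ra, the receptor of interleukin 6. Crp, C-reactive protein, measured 10.51, 10.61 and 10.46 in Wy-14643 livers, against 11.25, 11.46 and 12.55 in vehicle livers. Crp fell by 1.23 ± 0.25 (SE, adjusted p = 0.000312), and by 0.83 without vehicle replicate 3 (adjusted p = 0.015). Il6ra measured 7.96, 7.84 and 7.94 in Wy-14643 livers, against 9.15, 8.47 and 9.54 in vehicle livers. Il6ra fell by 1.14 ± 0.16 (SE, adjusted p = 1.5e-06), and by 0.90 without vehicle replicate 3 (adjusted p = 0.000112). Of the 5 tested neutrophil markers other than Lcn2, 4 fell with all 6 arrays and none without vehicle replicate 3. Of 12 Kupffer cell markers 5 fell, and none without it. The shares of all genes that fell were 15.5% and 9.29%. On the deposited values none of these markers fell and 2 Kupffer cell markers rose, where 55.2% of all genes did. Another 4 neutrophil markers were listed on all vehicle arrays and no Wy-14643 array, so they have no fold. Of 15129 genes with a listed probe, 410 were listed in that way. The part of these cells in the falls was not tested.

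Among the 8 called genes whose difference moved most when vehicle replicate 3 was left out, some were low in that liver alone. Ces1f, a carboxylesterase, measured 15.84, 15.66 and 15.80 in Wy-14643 livers, against 14.94, 15.04 and 7.84 in vehicle livers. It rose at least 8.91-fold with all 6 arrays, and had a difference of 0.77 without vehicle replicate 3 (adjusted p = 0.0825). Hao2, a peroxisomal hydroxyacid oxidase, measured 13.26, 13.47 and 13.15 in Wy-14643 livers, against 12.31, 12.91 and 7.31 in vehicle livers. Its difference of 2.45 shrank to 0.68 (adjusted p = 0.345), and that of Ces2b from the same enzyme family as Ces1f was 2.35 with all 6 arrays and 0.91 (adjusted p = 0.0723) without vehicle replicate 3. The chemokine Cxcl1 and the adhesion receptor Adgrl1 were high in vehicle replicate 3 alone, at 15.56 and 15.79, against 9.41 and 11.43 in vehicle replicate 1. Their differences were -3.16 (-1.13) and -1.82 (-0.38), and neither passed without vehicle replicate 3. Cxcl1 also lost its call without Wy-14643 replicate 1 (-2.99), and Adgrl1 without Wy-14643 replicate 2 (-1.78) or 3 (-1.78).

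Other lists had more members called lower without vehicle replicate 3, in which several of their genes were low. In drug metabolism 4 of 15 fell and none rose with all 6 arrays, and 6 fell without it, against 15.5% and 9.29% of all genes. Another 10 members of the drug metabolism list were at the scanner limit and not read. On the deposited values 5 rose and 1 fell, where 55.2% of all genes rose and 1.62% fell. Cyp1a2, which metabolises caffeine, measured 12.97, 12.62 and 12.62 in Wy-14643 livers, against 14.66, 13.93 and 10.67 in vehicle livers. Its difference was -0.35 (adjusted p = 0.599) with all 6 arrays and -1.56 (adjusted p = 7.31e-06) without vehicle replicate 3. Cyp2c37, of the CYP2C cluster, likewise had -0.29 and -1.52 (adjusted p = 0.000915). Cyp2c70, which makes muricholic acids in mice, fell, with differences of -1.32 (-1.36) and 2 vehicle livers at the scanner limit. Among sulfotransferases and glutathione transferases 2 of 16 rose and 4 fell with all 6 arrays, against 7.47% and 15.5% of all genes. Without vehicle replicate 3, 1 rose and 8 fell, against 4.65% and 9.29%. On the deposited values 4 rose and 1 fell, against 55.2% and 1.62% of all genes. Sult1a1, a phenol sulfotransferase, measured 14.63, 14.67 and 13.91 in Wy-14643 livers, against 16.36, 16.24 and 15.90 in vehicle livers. Sult1a1 fell by 1.76 ± 0.19 (SE, adjusted p = 4.74e-09), and by 1.90 without vehicle replicate 3 (adjusted p = 9.36e-09). In it 2 vehicle livers were at the limit. Gstt2, a glutathione transferase, rose by 1.62 (1.21). Thrsp and Acly, of fatty acid synthesis, were likewise called lower only without vehicle replicate 3. Thrsp, a lipogenic regulator, measured 14.23, 13.05 and 13.48 in Wy-14643 livers, against 16.17, 16.19 and 11.45 in vehicle livers. It had -1.01 (adjusted p = 0.256) with all 6 arrays and fell by 2.59 without vehicle replicate 3 (adjusted p = 6.74e-05). Acly, which makes cytosolic acetyl-CoA, had -0.50 (adjusted p = 0.392) and -1.36 (adjusted p = 0.00463). Me1, malic enzyme, measured 14.40, 14.60 and 14.15 in Wy-14643 livers, against 12.87, 13.41 and 10.15 in vehicle livers. Me1 rose by 2.24 ± 0.41 (SE, adjusted p = 9e-05), and by 1.24 without vehicle replicate 3 (adjusted p = 0.00345). Of 13 tested genes of fatty acid synthesis 3 rose and none fell with all 6 arrays, against 7.47% and 15.5% of all genes. Without that liver 2 rose and 2 fell, against 4.65% and 9.29%.

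In bile acid handling 2 of 13 rose and 3 fell, against 7.47% and 15.5% of all genes. Without vehicle replicate 3, 1 rose and 5 fell, against 4.65% and 9.29%. Abcc4, an exporter of bile acids towards the blood, measured 10.60, 10.47 and 11.21 in Wy-14643 livers, against 8.70, 8.77 and 9.34 in vehicle livers. Abcc4 rose by 1.83 ± 0.25 (SE, adjusted p = 6.08e-07), and by 2.03 without vehicle replicate 3 (adjusted p = 6.27e-07). Abcb11, the bile salt export pump, fell, with differences of -0.67 (-0.77) and 2 vehicle livers at the limit, and on the deposited values its difference was -0.05 with no call. Cholesterol synthesis and uptake had no call among 12 tested members, whose differences ran from -0.31 to 0.40; on the deposited values 5 of 12 rose, where 55.2% of all genes did. In the respiratory chain 2 of 16 rose, against 7.47% of all genes, and none fell. Without vehicle replicate 3, 1 rose, and 17 members were at the limit. On the deposited values all 16 rose, where 55.2% of all genes did. Of the receptors themselves, Pparg rose by 0.66 (0.57), and Ppara had a difference of 0.48 (adjusted p = 0.396).

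Genes listed in 1 group alone have no fold, since an empty entry gives no level. The brightest in the Wy-14643 livers besides Acot2 and Acot3 were Aqp3, a channel for water and glycerol, at 10.54, 11.33 and 12.33, Gsta2, a glutathione transferase, at 11.21, 11.41 and 11.15, and Ect2, an exchange factor of cytokinesis, at 11.21, 10.74 and 10.86. Ppp1r3g, which targets a phosphatase to glycogen, Elovl3, a fatty acid elongase, and Krt79, a keratin, had means of 10.4, 10.3 and 9.89. In the vehicle livers the brightest such genes were dimmer. Tmem267, a membrane protein, had 9.25, 8.47 and 9.36, and Ciart, a repressor of the circadian clock, 6.74, 10.53 and 8.18. Rassf4, Slc16a3, Zfp652, Rph3al, Mefv and Hapln4 had means of 8.19 to 8.41, and in 5 of these 6 vehicle replicate 3 was the highest.

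The mice killed 24 h after a single dose gave a comparison of other animals. At 24 h 782 genes rose (6.82% of 11459 tested) and 1199 fell (10.5%). Of the 1388 genes called at 1 day with and without vehicle replicate 3, 1311 were tested at 24 h, 1294 had the same sign there, and 938 (71.5%) were called in the same direction. These 938 were 48.9% of the 1918 genes called at 24 h that were tested at 1 day. Of the genes that lost their call without vehicle replicate 3, 1170 were tested at 24 h and 281 (24.0%) were called there in the same direction. Cd36 measured 14.68, 14.50 and 14.49 in Wy-14643 livers at 24 h, against 10.37, 10.28 and 10.61 in vehicle livers at 24 h, a difference of 4.14. Cidec measured 13.49, 12.39 and 12.96 in Wy-14643 livers at 24 h, against 7.90, 8.16 and 7.91 in vehicle livers at 24 h, a difference of 4.95. The acute phase list had 4 members lower at 24 h. Mt1 measured 13.98, 14.95 and 13.18 in Wy-14643 livers at 24 h, against 15.23, 14.12 and 14.14 in vehicle livers at 24 h, and its difference of -0.46 did not pass (adjusted p = 0.608). Because Mt1 reached the scanner limit at 1 day, the difference between its effects at the 2 times was not tested. Cpt1a, with no call at 1 day, rose by 1.27 at 24 h.

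Whether the effect at 1 day differed from that at 24 h was tested for 10923 genes, and 1 gene was called (0.00915%), with 518 (4.74%) at an unadjusted p under 0.05. That gene was Gpcpd1, a phosphodiesterase of choline metabolism. At 1 day it measured 9.00, 9.16 and 8.92 in Wy-14643 livers, against 9.79, 10.20 and 9.53 in vehicle livers. At 24 h it measured 9.93, 10.28 and 10.01 in Wy-14643 livers at 24 h, against 9.39, 8.50 and 8.63 in vehicle livers at 24 h. It fell by 0.81 at 1 day and rose by 1.23 at 24 h, a difference of -2.05 (adjusted p = 0.00157). In a fit on the 12 arrays of these groups alone the same difference was not called (adjusted p = 0.25), and the gene called there was Csad, a decarboxylase of taurine synthesis, at 2.00 (adjusted p = 0.0364). The fall at 1 day did not pass without vehicle replicate 2 (-0.63, adjusted p = 0.0585), and on the deposited values it was -0.19 with no call.

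**Figure D4:**
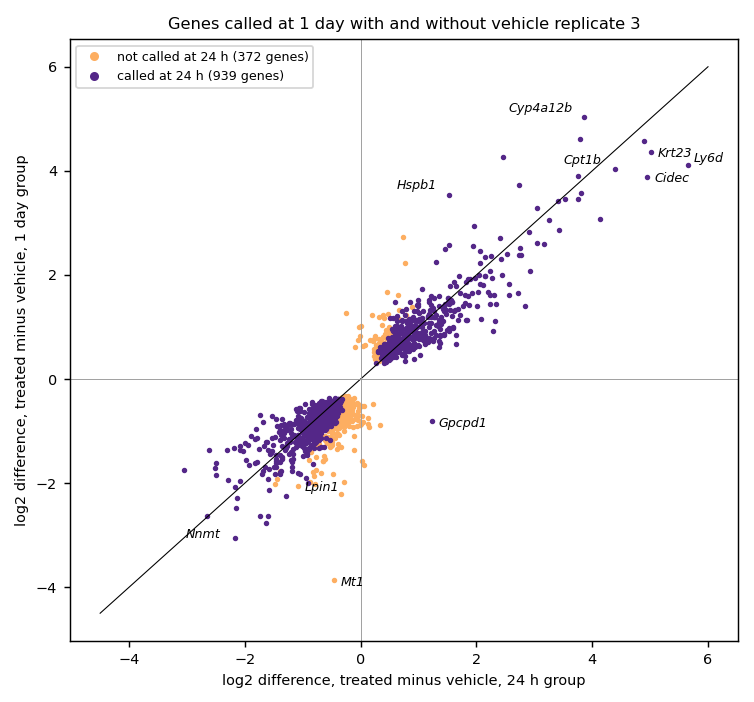
Log2 difference, Wy-14643 minus vehicle, at 1 day (y axis) and at 24 h (x axis) for the 1311 genes called at 1 day with and without vehicle replicate 3 and tested at both times. Of these, 939 were called at 24 h and 372 were not; 1294 lay on the same side of 0 at both times, and Gpcpd1 is marked on the opposite side.

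Clofibrate, an ester of a phenoxy-type fibric acid, was given at the same dose and sampled at the same time as Wy-14643, a pyrimidine thioacetic acid. The 2 comparisons may share control animals, since equally numbered vehicle arrays of both arms deviated from their group means together, with correlations of 0.66, 0.58 and 0.83 over 10386 genes; the labels do not say so. Against its own vehicle clofibrate changed 18 of 9684 genes (0.186%). A single pair of compounds was compared, and the difference between their effects was tested in 9502 genes, of which 68 were called (0.716%): 50 were higher and 18 lower with Wy-14643 than with clofibrate. The count was 98 with equally numbered vehicle arrays of both arms as a block (61 higher, 37 lower), 79 with the replicate number as a block, 248 on the deposited values, 148 with quantile normalization and 225 without vehicle replicate 3 of the clofibrate arm. The clofibrate arm held 2 livers with very high Lcn2 as well, clofibrate replicate 2 at 15.26 and vehicle replicate 3 at 15.97, so the values are also given without these 2 and vehicle replicate 3 of the Wy-14643 arm.

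Cidec measured 8.37, 9.13 and 8.89 in clofibrate livers, against 8.53, 8.89 and 8.68 in vehicle livers of that arm, while its Wy-14643 levels stood above 11. The Wy-14643 effect exceeded that of clofibrate by 3.79 ± 0.36 (SE, adjusted p = 1.34e-12), and by 3.85 without the 3 livers. Cpt1b measured 10.07, 9.74 and 9.79 in clofibrate livers, against 8.74, 8.50 and 8.96 in vehicle livers of that arm. Its effects differed by 2.90 ± 0.42 (adjusted p = 1.56e-06), and by 2.91 without the 3 livers. Slc22a5 measured 9.33, 10.00 and 9.21 in clofibrate livers, against 9.35, 9.09 and 9.84 in vehicle livers of that arm, with a difference between effects of 2.52 ± 0.31 (adjusted p = 3.09e-08). The clofibrate livers overlapped their vehicle livers in Cidec and Slc22a5 and lay above them in Cpt1b. Crat and Decr1, of the carnitine shuttle and of mitochondrial beta-oxidation, differed by 2.07 and 1.57. Cd36 measured 11.45, 12.32 and 11.30 in clofibrate livers, against 10.16, 9.85 and 11.85 in vehicle livers of that arm, and the effects differed by 2.00 (adjusted p = 0.0141); without vehicle replicate 3 of the clofibrate arm it was 1.39 (adjusted p = 0.0802). Cyp4a12a differed by 2.64 (adjusted p = 0.0168) and did not pass without vehicle replicate 3 of the Wy-14643 arm (2.49, adjusted p = 0.0549) or without the 3 livers (2.72, adjusted p = 0.0697).

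Genes lowered more by Wy-14643 included Acat3, a cytosolic thiolase, and Gpld1, a phospholipase secreted by the liver. Acat3 measured 13.74, 13.76 and 13.08 in Wy-14643 livers, against 15.51, 14.97 and 14.89 in vehicle livers, and 15.54, 14.78 and 15.16 in clofibrate livers, against 15.71, 14.61 and 14.55 in vehicle livers of that arm. Its effects differed by -1.80 ± 0.34 (adjusted p = 0.000576), and by -1.91 without the 3 livers. Gpld1 had -1.29, and -1.60 without them; it was not called on the deposited values (-0.99, adjusted p = 0.103) or with quantile normalization (-1.11, adjusted p = 0.0764). Ivd, of leucine breakdown, had -1.27 and no call without the 3 livers (-0.87, adjusted p = 0.29), and F11 had -1.31 and no call without vehicle replicate 3 of the Wy-14643 arm (-1.07, adjusted p = 0.138). Some genes rose with both compounds. For Retsat, Ehhadh, Cyp4a10 and Eci1 the effects were 2.94, 2.51, 1.67 and 1.19 with Wy-14643. They were 2.87, 2.74, 1.63 and 1.18 with clofibrate. For Hsd17b11, named after its values were seen, they were 0.79 and 1.51. For Acot1 and Vnn1 the effect was larger with Wy-14643, at 4.26 against 2.85 and 3.47 against 1.99. Each of these genes lay near the scanner limit in some group, so the difference was not tested. In Serinc2, of the serine incorporator family and named after its values were seen, the effects were 3.42 with Wy-14643 and 1.56 with clofibrate, and the difference of 1.87 was called (adjusted p = 0.00199), as was that of Cyp4a12a. For the genes that follow, the difference between the effects was not called. Cyp4a12b rose by 5.03 with Wy-14643 and by 3.77 with clofibrate, and the 95% interval of the difference ran from 0.25 to 2.28 (adjusted p = 0.368). For Spon2 the effects were 3.73 and 1.91, with an interval from 0.67 to 2.97 (adjusted p = 0.155). For Cyp4a31 they were 4.62 and 2.56, with an interval from 0.75 to 3.36 (adjusted p = 0.158). Slc2a5 fell by 2.63 with Wy-14643 and by 1.64 with clofibrate, with an interval from -1.84 to -0.14 (adjusted p = 0.42). Csad, Dnaic1 and Vwa8, named here after their values were seen, also rose with both compounds. Their intervals spanned 0, from -0.21 to 1.53, from -0.12 to 1.75 and from -0.08 to 1.12. These 95% intervals, unlike the adjusted p, take no account of the number of genes tested. A p that misses the threshold does not show that the compounds act alike. All of these intervals but that of Vwa8 reach differences of more than 1.5 on the log2 scale. Mogat1 and Lamb3, among the highest with Wy-14643, had no entry on the vehicle arrays of the clofibrate arm and were not compared.

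**Figure D5:**
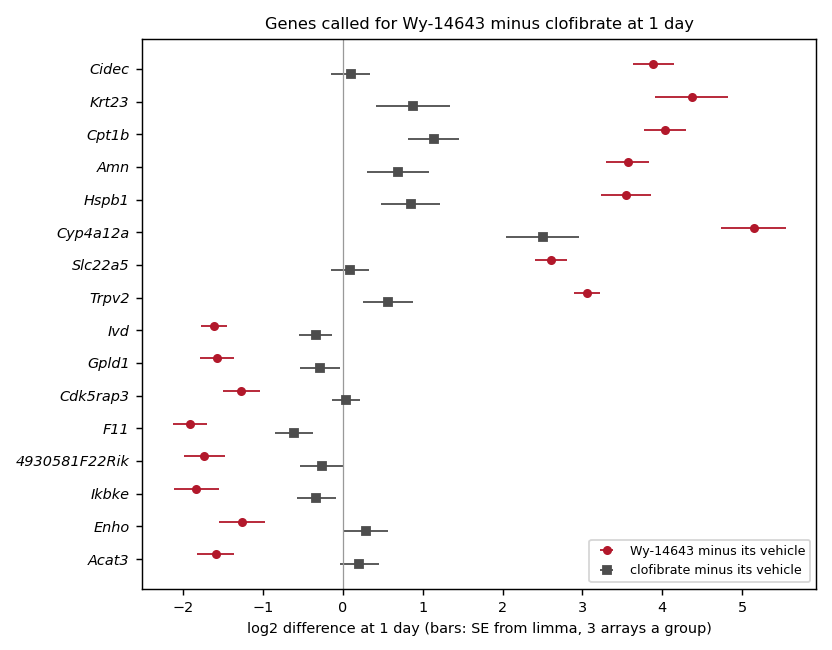
Log2 difference from vehicle at 1 day for the 8 highest and 8 lowest genes called for the difference between the compounds, with Wy-14643 and with clofibrate, both at 300 mg/kg, with bars of 1 SE. Cidec stands at 3.89 with Wy-14643 and 0.10 with clofibrate, and Cyp4a12a at 5.14 with Wy-14643 and 2.50 with clofibrate.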

How the data were processed

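Gene expression was measured by single-colour Cy3 arrays in total liver RNA extracted with TRIzol, per the labels' protocols. The authors deposited log2 intensities for 41189 entries, 93 of them controls, with 46.7% of the values of the 6 arrays empty; no source read here names the filter behind the empty entries. Tied probes at the scanner limit averaged 16 over the arrays of each group, which shows that the authors set arrays to each other within a group, and how the groups were set to each other is unknown. Of 41096 probes, 32609 carried 1 gene symbol, 44 several and 8443 none. Array precision is limited by 3 arrays a group.

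Each array was scaled to its 75th percentile over the 12210 probes listed on all 108 arrays, and a gene was read at its brightest probe. limma 3.58.1 in R 4.3.3 (lmFit, eBayes with a variance trend) was fitted on the 54 arrays of the Wy-14643 arm with 1 mean per group, or on all 108 arrays for the compound comparison, with Benjamini-Hochberg adjustment at 0.05, two-sided. Genes within 0.1 of the scanner limit in both groups, or in the lower group alone, were left out, and in tests of a difference between effects any gene near it in any of the 4 groups; this rule was widened from saturation in both groups after the files were read. The titles carry replicate numbers and name no pairing. Same-numbered Wy-14643 and vehicle arrays deviated together (correlations 0.34, 0.26 and 0.28). The main fit used no pairing, so a fit with the replicate block was run as well. The fit was tested on simulated data. The members, gene lists and tests were chosen with earlier results of these data known. Genes named are list members, the 15 highest and 15 lowest that were apart and called with and without vehicle replicate 3, the 8 that moved most without it, up to 8 in each direction for each difference between effects, and the 8 brightest listed in 1 group alone. Promoter windows are RefSeq's, GRCm38.p6. The alternatives covered scaling, probe choice, spread, array weights, the block and each array left out.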

Additional observations from a re-analysis of the deposited data

Results flagged for a closer look

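Differences between 2 effects met the test of the difference itself in the results below. For the effect at 1 day minus the effect at 24 h, 1 gene was called, Gpcpd1 at -2.05. For the effect of Wy-14643 minus that of clofibrate at 1 day, 68 genes were called. The 8 highest were Cidec at 3.79, Krt23 at 3.49, Cpt1b at 2.90, Amn at 2.88, Hspb1 at 2.69, Cyp4a12a at 2.64, Slc22a5 at 2.52 and Trpv2 at 2.49. The 8 lowest were Acat3 at -1.80, Enho at -1.54, Ikbke at -1.50, 4930581F22Rik at -1.47, F11 at -1.31, Cdk5rap3 at -1.31, Gpld1 at -1.29 and Ivd at -1.27.

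Members of the gene lists that were called as well were Acot4 at 2.13, Crat at 2.07, Cd36 at 2.00, Abcc4 at 1.87, Decr1 at 1.57, Gpat3 at 1.55, Slc27a1 at 1.46, Acot8 at 1.32, Fitm2 at 1.21 and F7 at -1.16. Very high Lcn2 marked 1 clofibrate liver, 1 vehicle liver of that arm and 1 vehicle liver of the Wy-14643 arm. Without these 3 livers Krt23 was 2.67 (adjusted p = 0.0403), Amn 2.22 and Hspb1 2.40, all still called by limma. Enho (-1.71), Ikbke (-1.22), 4930581F22Rik (-1.25), F11 (-1.26), Ivd (-0.87), Cyp4a12a (2.72) and Slc27a1 (1.00) were not. Without vehicle replicate 3 of the Wy-14643 arm alone, Acot4 (1.32), Cyp4a12a (2.49), Slc27a1 (1.30), Cdk5rap3 (-0.93), Ikbke (-0.99), F11 (-1.07), 4930581F22Rik (-1.39) and Enho (-1.45) were not called. Enho, Ikbke, 4930581F22Rik, F11 and Gpld1 were also not called on the deposited values or with quantile normalization, nor was F7 on the deposited values. Gpcpd1 was not called in a fit on the 12 arrays alone. The part of the high-Lcn2 livers in these differences was not tested further.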

How the results depend on the processing

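The count of 2649 genes called at 1 day was 6556 on the deposited values (6369 higher, 187 lower), 603 in a fit on the 6 arrays alone, 1515 on 5 arrays without vehicle replicate 3, 1403 at an adjusted p of 0.01, 2787 with the replicate block and 1043 with the block and without vehicle replicate 3. Leaving out each array in turn gave 1609 to 2863 genes, the lowest without vehicle replicate 3 and the others from 1884 up. The block changed the call of Cyp4f14 and of no other of the 191 genes checked. The count of 1 gene for 1 day minus 24 h was 6 on the deposited values, and in a fit on the 12 arrays alone it was again 1, a different gene (Csad in place of Gpcpd1). For Wy-14643 minus clofibrate the 68 genes became 248 on the deposited values (242 higher), 148 with quantile normalization (142 higher), and 64 to 225 with 1 array left out, the highest without vehicle replicate 3 of the clofibrate arm. Members called over the lists numbered 216, and 99 in the fit on the 6 arrays alone. The scaling between the groups is unknown. All alternative scalings moved the median difference up, so they put the calls lower than vehicle to the test more than the calls higher. They cannot show that the calls higher rest less on the scaling. No gene among those checked that was called, either in the main fit or in the alternative, turned direction between them. Of 3969 checks of 191 genes, 3637 kept the call or its absence, 291 lost the call and 41 gained it. Genes called in neither fit were not checked for direction, and small differences of such genes can change sign. The fit on the 6 arrays alone ended 73 of these calls, the block without vehicle replicate 3 47, the deposited values 31 and leaving out vehicle replicate 3 25; fewer arrays give fewer degrees of freedom. Signal limits the rest: genes at the scanner limit have bounds alone, and empty entries have no level.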
